A study of Mus musculus with 4 samples.

Results

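The actin, myosin and contractility genes examined here are a fixed list of 34 genes, of which 33 were measured, among 19938 genes tested in all. Each gene was read by the probe set that the array's probe-to-gene table assigns to it alone, the brightest one where there were several, and no member needed a probe set shared with another symbol. Rock2 is not analysed here. The cells were Py2T, a mouse breast cancer cell line cultured in DMEM with 10% FCS. Total RNA of untreated cells (2 arrays) and of cells given TGFβ at 2 ng/ml for 5 days (2 arrays) was measured on Affymetrix expression arrays, labelled as biological replicates, with no genetic change named in the labels for either group. Values are on the RMA log2 scale, on which a difference of 1 is a doubling.

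Non-muscle cells contract when myosin II, a motor built of heavy chains and light chains, pulls on actin filaments. Tropomyosins, caldesmon and calponins coat or decorate those filaments, alpha-actinins and filamins link them into bundles and networks, and cofilin and profilin turn them over. Small GTPases such as Rhoa set the amount of contraction through the Rock kinases and the formin Diaph1, and Srf, together with the actin-sensing coactivator Mrtfa, transcribes many of these genes. In epithelial cells exposed to TGFβ, a gain of actin stress fibres is a known feature of the epithelial to mesenchymal transition, and TGFβ also induces smooth muscle genes such as Acta2 in fibroblasts and myofibroblasts.

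Of the 33 measured genes 5 rose after TGFβ, 2 fell and 26 did not pass (limma, adjusted p under 0.05 over all genes). The filamin Flnc rose 3.21-fold, the small GTPase Rhob 2.43-fold, the myosin light chain Myl9 1.90-fold, the tropomyosin Tpm1 1.88-fold and the myosin II heavy chain Myh10 1.33-fold. The tropomyosin Tpm2 was 1.94-fold lower and the myosin II heavy chain Myh14 1.97-fold lower. Among all genes tested 6.49% were called higher and 7.15% lower. The 5 rises (15.2% of the list) stood above the share over all genes and the 2 falls (6.06%) close to it. The list was chosen with earlier results of these data known, so its excess of rises is described and was not tested. Counts within its role groups below are small, stand beside these same shares over all genes, and were not tested. The median log2 difference of the list was 0.15, against 0.0097 over all genes. Differences above 0 were seen in 27 of the 33 genes, and in 10535 of the 19938 genes tested. In 24 of the 33 genes (72.7%) the untreated and TGFβ values did not overlap, as in 52.6% of all genes. In 20 of them (60.6% of the list) both TGFβ arrays lay above both untreated arrays, which was so for 27.6% of all genes. Among genes with at least 1 group mean of 7 or more, 18 of 26 list genes (69.2%) did not overlap, close to the 65.9% of all such genes, while 57.7% had both TGFβ arrays above, against 32.5%. Without untreated replicate 1 the rises numbered 3 and the median was 0.076, and without TGFβ replicate 1 the median was 0.081 with 4 rises. With all probe sets of the array tested together the rises numbered 2 (Flnc and Tpm1) and the falls 2.

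**Figure D1:**
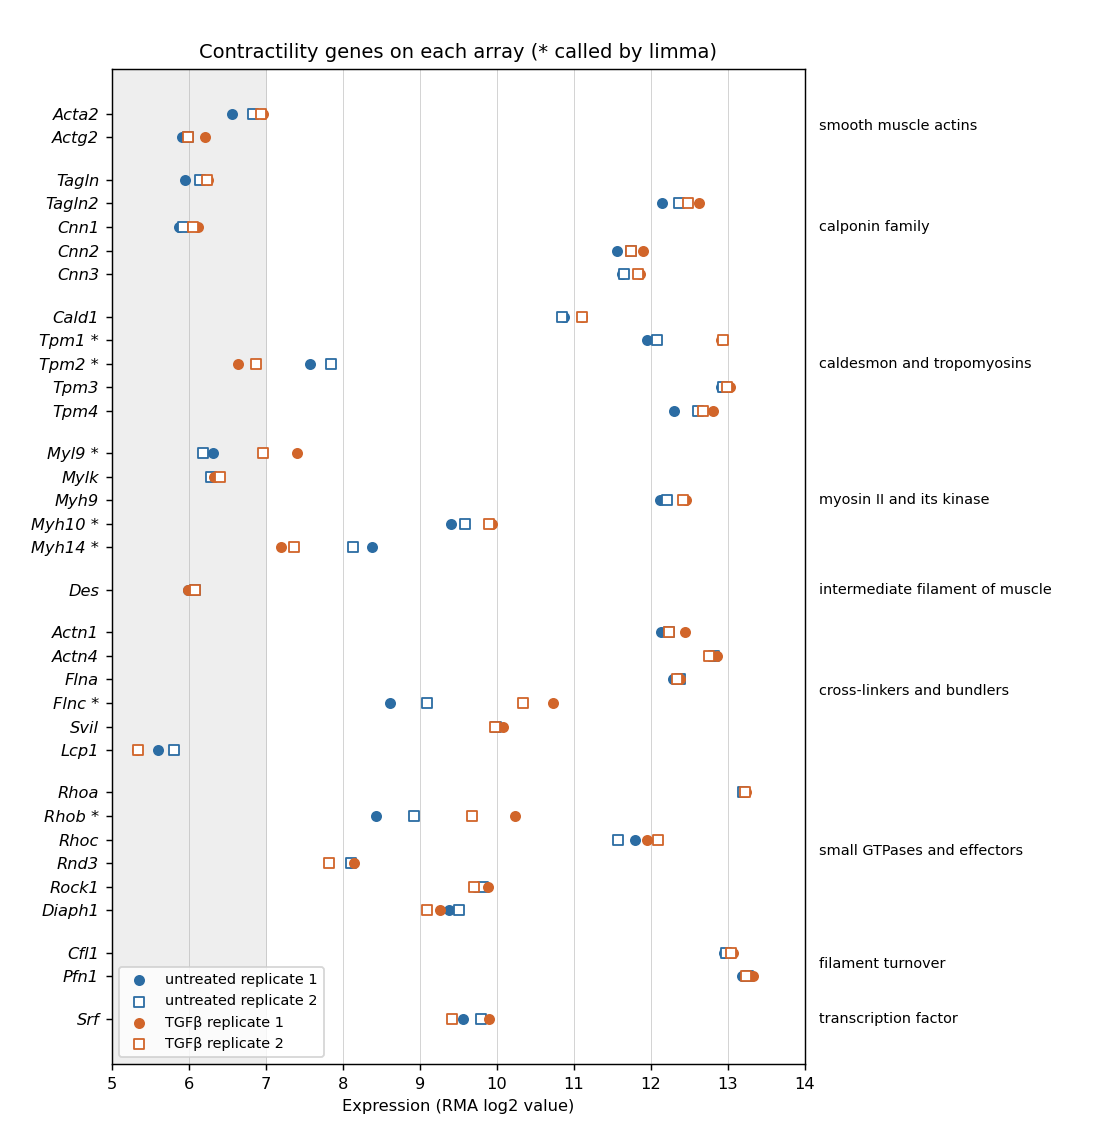
Expression of the 33 measured contractility genes (RMA log2 value, horizontal axis) on each of the 4 arrays, grouped by role, with untreated arrays in blue and TGFβ arrays in orange, and values below 7 shaded. The TGFβ points of Flnc, Rhob, Tpm1, Myl9 and Myh10 sit to the right of their untreated points, and those of Tpm2 and Myh14 to the left. The remaining genes have smaller differences between group means, some with the groups apart.

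The list spanned the scale of the array, from a mean of 5.52 for Lcp1 to 13.25 for Pfn1. In 7 genes (Acta2, Actg2, Tagln, Cnn1, Mylk, Des and Lcp1) both group means were below 7, near the median of all probe sets (6.74 to 6.76 on the 4 arrays), where no detection call tells signal from background. None of those 7 passed. Among the 26 brighter genes 7 passed (26.9%), against 22.8% of all genes with at least 1 group mean of 7 or more. The 5 rises were 19.2% of these 26 genes against 10.7% of all such genes, and the 2 falls 7.69% against 12.1%. Arrays of the same group correlated at 0.9968 (untreated) and 0.9952 (TGFβ) over all probe sets, and arrays of different groups at 0.9854 to 0.9885. The labels name biological replicates and nothing more of how cultures were kept, so the tests reflect only how far these particular samples vary, which may be technical. In RNA from a whole culture, fewer cells of a kind and less RNA per cell cannot be told apart.

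All 6 epithelial markers examined (Epcam, Cdh1, Krt8, Krt18, Krt7 and Esrp1) were above 7 in both groups, which does not by itself identify the line. Their list means were 12.5 on both untreated arrays and 11.7 to 11.9 on the TGFβ arrays, and 3 of them fell. Of 7 smooth muscle markers 1, Smtn, was above 7 in either group, at 10.48 and 10.46 untreated and 11.02 and 10.74 with TGFβ. The Smtn groups did not overlap, and the difference of 0.41 did not pass (limma adjusted p = 0.066). The list mean of the 7 markers was 6.65 to 6.69 untreated and 6.73 to 6.75 with TGFβ. These 7 were Myh11, Lmod1, Myocd, Smtn, Synpo2, Cnn1 and Des. Cnn1 and Des are members of the list studied here and the others are among the further actin genes below, so this panel is not a separate check. The smooth muscle myosin Myh11 and the coactivator Myocd were at 6.42 and 5.42 in TGFβ cells. Of 6 skeletal and cardiac muscle markers 3 were above 7 in both groups and 1, Tnnt2, rose (list means 7.44 to 7.46 and 7.51 to 7.62). Of 6 fibroblast markers 3 were above 7 in both groups and 1 rose (list means 6.30 to 6.34 and 6.40 to 6.55), of 6 endothelial markers 0 were above 7, and of 6 leukocyte markers 2 were above 7 and 0 passed (6.46 to 6.70 and 6.21 to 6.36).

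**Figure D2:**
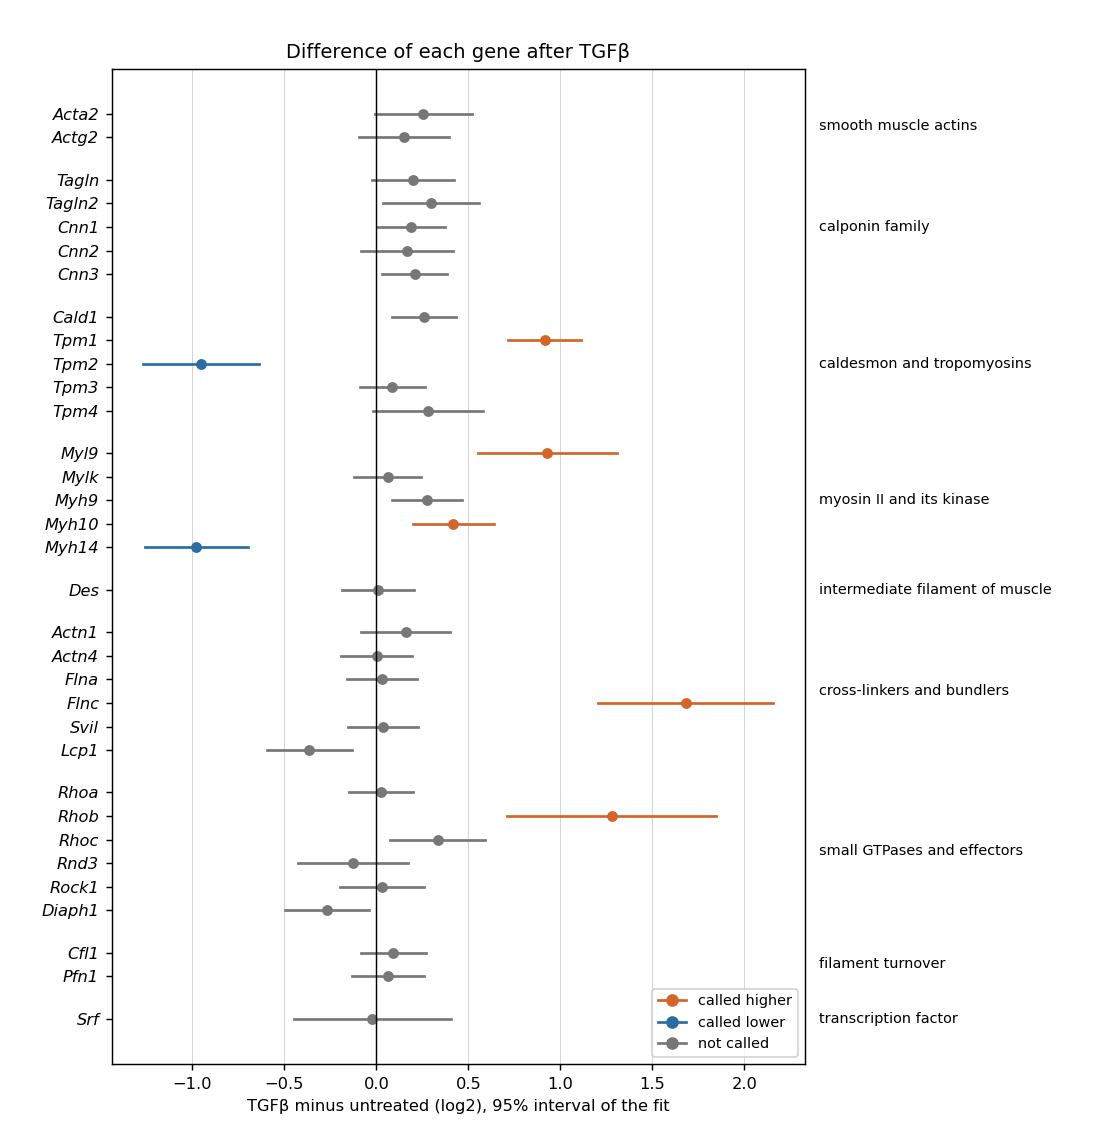
TGFβ minus untreated difference (log2, horizontal axis) of each of the 33 genes with the 95% interval of the limma fit, in orange where called higher, blue where called lower and grey where not called. Flnc (1.68) and Rhob (1.28) have the largest differences, Tpm2 (-0.95) and Myh14 (-0.98) lie at the other end, and all 26 genes that were not called have intervals inside -1 to 1.

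The stretches just before the start sites of the 7 called genes are shown because these are the genes whose level changed, and because the study's title names Tead2, a DNA-binding partner of Yap and Taz. They are the 250 bases upstream of the RefSeq start (build GRCm38.p6), written 5′ to 3′ on the gene's own strand. Capitals mark 3 short motifs searched on both strands. GGAATG (or CATTCC) is the core bound by TEAD factors. The CArG box, bound by Srf, was searched only as CCWWWWWWGG, where W is A or T. CAGAC (or GTCTG) is an element bound by Smad proteins. Variants of the CArG box that depart from this exact pattern are neither marked nor counted. A match is a string of letters, not a known site.
Flnc (chr6:29433006-29433255, plus strand): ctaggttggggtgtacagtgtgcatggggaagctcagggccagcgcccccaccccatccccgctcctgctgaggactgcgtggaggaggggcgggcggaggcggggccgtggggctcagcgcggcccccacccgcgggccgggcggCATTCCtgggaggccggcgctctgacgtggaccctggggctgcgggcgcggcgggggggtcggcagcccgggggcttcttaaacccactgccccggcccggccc
Rhob (chr12:8500010-8500259, minus strand): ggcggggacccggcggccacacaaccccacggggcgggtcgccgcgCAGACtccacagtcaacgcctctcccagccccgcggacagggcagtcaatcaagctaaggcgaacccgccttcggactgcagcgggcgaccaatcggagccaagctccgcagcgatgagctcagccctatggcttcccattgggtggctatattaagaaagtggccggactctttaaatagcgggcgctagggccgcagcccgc
Tpm1 (chr9:67049214-67049463, minus strand): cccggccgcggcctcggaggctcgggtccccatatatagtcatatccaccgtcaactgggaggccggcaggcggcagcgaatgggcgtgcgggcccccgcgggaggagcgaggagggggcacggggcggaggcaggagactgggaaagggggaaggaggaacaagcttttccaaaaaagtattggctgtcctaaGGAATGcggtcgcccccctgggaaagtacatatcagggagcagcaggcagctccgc
Myl9 (chr2:156775214-156775463, plus strand): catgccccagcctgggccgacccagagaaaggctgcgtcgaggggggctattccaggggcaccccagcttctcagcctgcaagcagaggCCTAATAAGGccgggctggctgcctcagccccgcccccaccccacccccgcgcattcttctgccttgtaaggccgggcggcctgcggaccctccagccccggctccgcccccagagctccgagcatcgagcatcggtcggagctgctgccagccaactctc
Myh10 (chr11:68691665-68691914, plus strand): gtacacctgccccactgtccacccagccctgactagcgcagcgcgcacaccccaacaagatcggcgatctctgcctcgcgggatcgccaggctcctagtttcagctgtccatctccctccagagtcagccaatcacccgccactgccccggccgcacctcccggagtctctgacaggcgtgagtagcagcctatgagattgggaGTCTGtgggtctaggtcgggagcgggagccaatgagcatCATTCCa
Tpm2 (chr4:43523555-43523804, minus strand): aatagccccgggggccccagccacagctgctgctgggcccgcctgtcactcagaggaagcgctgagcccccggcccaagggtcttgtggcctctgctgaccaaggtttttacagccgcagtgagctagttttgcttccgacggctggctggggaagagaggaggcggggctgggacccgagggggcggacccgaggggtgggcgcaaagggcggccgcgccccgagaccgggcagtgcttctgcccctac
Myh14 (chr7:44670844-44671093, minus strand): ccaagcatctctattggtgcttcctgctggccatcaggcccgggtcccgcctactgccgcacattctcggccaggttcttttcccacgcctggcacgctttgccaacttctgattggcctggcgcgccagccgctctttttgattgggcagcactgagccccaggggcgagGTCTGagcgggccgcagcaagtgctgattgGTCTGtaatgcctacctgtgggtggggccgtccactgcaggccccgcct

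Flnc held CATTCC beginning 104 bases before the start shown. RefSeq lists a second Flnc start 103 bases away, and the 250 bases upstream of that one held none of the 3 motifs. Tpm1 held GGAATG beginning 56 bases before its start, and Myl9 held a CArG box beginning 161 bases before its start. Myh10 held CATTCC beginning 7 bases before its start and 1 CAGAC match (as GTCTG). Rhob held 1 CAGAC match and Myh14 held 2, while Tpm2 held none of the 3. In the counts that follow, a gene held a motif if the 250 bases upstream of any of its RefSeq starts did. The number of starts per gene was not taken into account. Of the 28 list genes with a promoter entry, 11 (39.3%) held GGAATG, among them Acta2, Cald1, Tagln2, Actn4, Flna, Pfn1 and Myh10 beside Flnc and Tpm1, whereas 13.2% of 15614 genes tested that have an entry held it. A CArG box of the exact pattern stood in 4 of the 28 (Cnn2, Myl9, Rnd3 and Srf itself), or 14.3%, against 1.45% of all. The other genes may hold variants of it, or copies farther away, which were not searched. CAGAC was as frequent in the list (46.4%) as over all genes (45.4%). Of the 7 called genes 3 held GGAATG, 1 a CArG box and 3 CAGAC, and most list genes with GGAATG (8 of 11) were not called.

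Among the smooth muscle actins, Acta2, the alpha actin of smooth muscle and myofibroblasts, gave 6.56 and 6.83 in untreated cells and 6.97 and 6.94 with TGFβ. The TGFβ values were above both untreated values but stayed under 7, and the difference of 0.26 did not pass (95% interval -0.01 to 0.52, adjusted p = 0.21). Actg2, the gamma actin of enteric smooth muscle, gave 5.91 and 5.98 against 6.21 and 5.99 (adjusted p = 0.45). For both genes the interval lies below a rise of 1 log2 unit in array value. On this dim part of the scale background limits the size of a difference, so a doubling of the transcript is not excluded.

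The calponin family, filament-decorating proteins that include the transgelins, had no called gene among 5, with all 5 differences above 0 and a median of 0.20. The smooth muscle members Tagln (difference 0.20, adjusted p = 0.25) and Cnn1 (0.19, adjusted p = 0.18) were dim, with both Cnn1 group means close to 6. The broadly expressed members were bright. Tagln2 gave 12.14 and 12.37 in untreated cells and 12.62 and 12.48 with TGFβ (adjusted p = 0.14). Cnn3 gave 11.63 and 11.66 against 11.86 and 11.84, a tight separation with a difference of 0.21 ± 0.07 (SE, adjusted p = 0.13), and the Cnn2 groups overlapped. In 4 of the 5 genes, the dim Tagln and Cnn1 among them, both TGFβ arrays lay above both untreated arrays by amounts that did not pass. The same order was seen in 27.6% of all genes tested, and the excess in this small family was not tested.

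Tropomyosins, rod-like dimers lying along the actin filament that govern which myosins and filament-severing proteins reach it, changed in opposite directions. The probe sets read for Tpm1, Tpm2 and Tpm3 list 15, 4 and 7 RefSeq transcripts, so the isoforms of a gene are not told apart. Tpm1, whose isoforms include those of stress fibres and muscle, gave 11.95 and 12.08 in untreated cells and 12.91 and 12.94 in TGFβ cells. The groups were far apart for so bright a gene, with a rise of 0.91 ± 0.08 on the log2 scale (SE, adjusted p = 0.0020). Tpm2, the beta tropomyosin of muscle and stress fibres, gave 7.57 and 7.84 in untreated cells and 6.64 and 6.87 in TGFβ cells. It fell by 0.95 ± 0.13 (SE, adjusted p = 0.0076), and its TGFβ mean of 6.75 was below 7, where background limits the size of the fall. Both calls held in every alternative in which these genes were tested.

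Tpm4, which encodes a cytoskeletal tropomyosin, gave 12.30 and 12.61 against 12.80 and 12.68 and did not pass (0.28, 95% interval -0.02 to 0.58, adjusted p = 0.22). A second, brighter Tpm4 probe set is also assigned to the predicted gene Gm7809 and differed by 0.19. Tpm3, another tropomyosin gene, differed by 0.09 at a mean near 13 (adjusted p = 0.57). The other 3 Tpm3 probe sets differed by 0.30, 0.10 and 0.08, and none passed when all probe sets were tested together (adjusted p = 0.15, 0.60 and 0.72). Cald1, caldesmon, which tethers myosin and tropomyosin to actin, gave 10.87 and 10.84 in untreated cells and 11.11 and 11.11 with TGFβ. The 2 groups did not overlap, and the difference of 0.26 ± 0.07 (SE) had an adjusted p of 0.071.

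The myosin II genes also moved both ways: of 5 measured, 2 rose, 1 fell and 2 did not pass. Myl9, a regulatory light chain abundant in smooth muscle and stress fibres, gave 6.31 and 6.19 in untreated cells and 7.40 and 6.96 in TGFβ cells. It rose by 0.93 ± 0.15 (SE, adjusted p = 0.015) from an untreated mean below 7, so its fold is limited by background. Leaving out untreated replicate 2 ended the call (0.87, adjusted p = 0.054), as did fitting with all probe sets of the array tested together (adjusted p = 0.065). Myh10, the heavy chain of non-muscle myosin IIB, gave 9.40 and 9.59 against 9.93 and 9.89 and rose by 0.42 ± 0.09 (SE, adjusted p = 0.034). The groups did not overlap, but leaving out untreated replicate 1 gave 0.33 (adjusted p = 0.17), TGFβ replicate 1 gave 0.40 (adjusted p = 0.11) and TGFβ replicate 2 gave 0.44 (adjusted p = 0.080). None of these passed, nor did the gene with all probe sets tested together (adjusted p = 0.094).

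Myh14, the heavy chain of non-muscle myosin IIC, found mainly in epithelia, gave 8.38 and 8.13 in untreated cells and 7.19 and 7.36 in TGFβ cells. It fell by 0.98 ± 0.11 (SE, adjusted p = 0.0048), with both TGFβ arrays well below both untreated ones, and the call held in every alternative. Myh9, the heavy chain of the most widespread form, non-muscle myosin IIA, was bright at 12.12 and 12.21 untreated and 12.46 and 12.42 with TGFβ. Its difference of 0.27 ± 0.08 (SE, adjusted p = 0.073) did not pass, but did when variances were fitted robustly along an intensity trend (adjusted p = 0.028). A second, dimmer Myh9 probe set differed by 0.41 with a wide spread between the TGFβ arrays. Mylk, the kinase that phosphorylates the regulatory light chain, was dim on all 4 arrays (6.29 to 6.40) and differed by 0.06.

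Des, the desmin filament of muscle, read 5.99 and 6.08 untreated and 5.99 and 6.09 with TGFβ, a difference of 0.01 at a level near background.

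**Figure D3:**
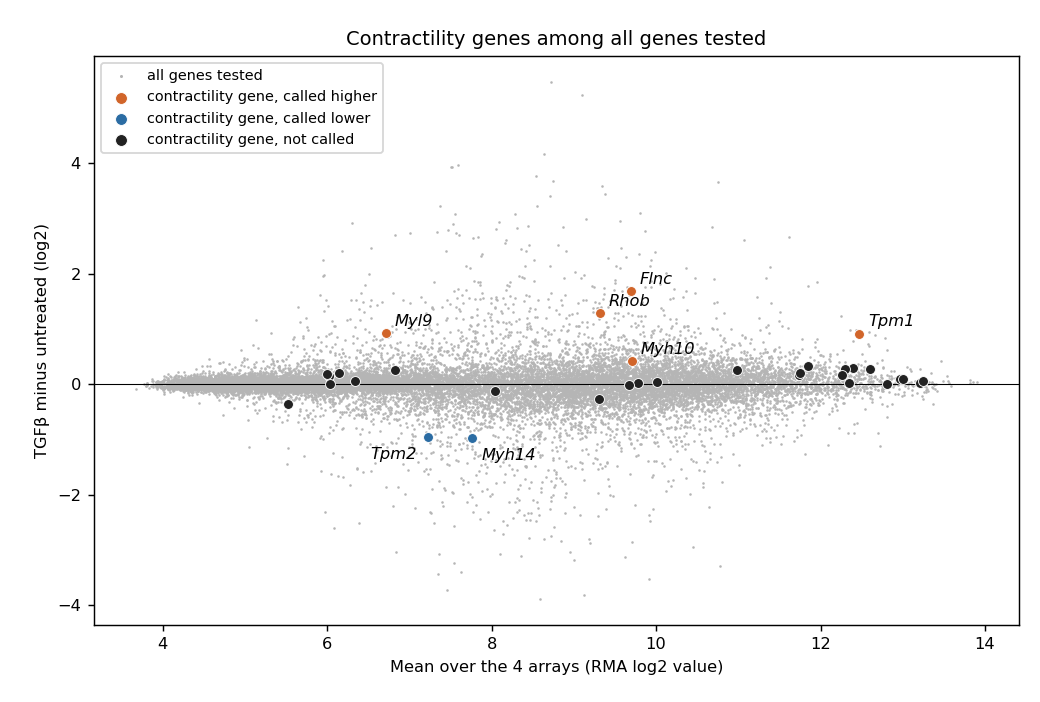
TGFβ minus untreated difference (log2, vertical axis) against the mean over the 4 arrays (RMA log2 value, horizontal axis) for the 19938 genes tested (grey) and the contractility genes (coloured by call). Flnc, at rank 112 by rise, and Rhob lie in the upper part of the cloud, Tpm1 lies above the narrow band of genes near its own mean, and most of the list lies close to 0.

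Among the proteins that link filaments, 1 of 6 genes rose and 5 did not pass. Flnc, the filamin of muscle and of strained actin structures, gave 8.62 and 9.09 in untreated cells and 10.73 and 10.34 in TGFβ cells. It rose by 1.68 ± 0.19 on the log2 scale (SE, 95% interval 1.21 to 2.16, adjusted p = 0.0046), the largest difference in the list and rank 112 of all genes by rise, and was called in every alternative. Its relative Flna, the widespread filamin, was bright and overlapping in the 2 groups, at 12.29 and 12.38 against 12.38 and 12.34. Its interval of -0.16 to 0.22 for the difference lies wholly below that of Flnc. The alpha-actinins Actn1 and Actn4, which bundle stress fibres, differed by 0.16 (adjusted p = 0.41) and by 0.00025 (95% interval -0.19 to 0.19), the latter flipping sign with the scaling of the arrays. Svil, supervillin, a membrane-linked myosin and actin binder, differed by 0.03 with overlapping groups.

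Lcp1, the bundling plastin of leukocytes that some carcinoma cells also make, gave 5.60 and 5.81 in untreated cells and 5.33 and 5.35 with TGFβ. The groups did not overlap, and its difference of -0.36 ± 0.09 (SE) had an adjusted p of 0.060 at a level where signal cannot be told from background. Of the 6 leukocyte markers Ptprc, Itgam, Cd3e and Cd79a had means below 7 in both groups with overlapping values. Both brighter ones were lower on both TGFβ arrays without passing, with a difference of -1.29 for Cd68 (adjusted p = 0.052) and -0.45 for Csf1r (adjusted p = 0.20). The part of leukocyte genes in the Lcp1 difference was not tested.

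The small GTPases, switches that act on Rock kinases and formins, and their effectors included 1 rise among the 6 genes measured. Rhob, an immediate-early small GTPase of endosomes and the plasma membrane, gave 8.43 and 8.92 in untreated cells and 10.24 and 9.67 in TGFβ cells. It rose by 1.28 ± 0.23 (SE, adjusted p = 0.020), with groups apart but the widest spread within groups of any gene in the list. Leaving out untreated replicate 1 gave 1.04 and ended the call (adjusted p = 0.059), as did a fit with all probe sets tested together (adjusted p = 0.079). Rhoc, a GTPase linked to cell motility, gave 11.79 and 11.58 against 11.94 and 12.09, a difference of 0.33 ± 0.10 that did not pass (SE, adjusted p = 0.10). Rhoa, the main driver of stress fibres, was among the brightest genes and near constant, at 13.21 and 13.19 untreated and 13.23 and 13.22 with TGFβ. Its 95% interval of -0.15 to 0.20 lies below that of Rhob, and a second Rhoa probe set differed by 0.03 as well.

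Rnd3, an atypical small GTPase that opposes Rock1, gave 8.11 and 8.11 against 8.15 and 7.82, with overlapping groups (adjusted p = 0.63). The kinase Rock1, which phosphorylates the myosin phosphatase and light chain, differed by 0.03 with overlapping groups. Diaph1, the formin that Rhoa activates to build unbranched filaments, gave 9.38 and 9.51 in untreated cells and 9.26 and 9.10 with TGFβ. It was lower on both TGFβ arrays, with a difference of -0.27 ± 0.09 that did not pass (SE, adjusted p = 0.13). Without TGFβ replicate 2 the Rnd3 difference changed sign, and the Rock1 difference did so without untreated replicate 1 or TGFβ replicate 1, each within -0.06 to 0.04.

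Of the turnover proteins, Cfl1, cofilin, which severs filaments, and Pfn1, profilin, which feeds monomers to growing ends, had means above 12.9 on every array and differed by 0.09 (95% interval -0.08 to 0.27) and 0.06 (95% interval -0.13 to 0.26). Srf gave 9.56 and 9.80 in untreated cells and 9.90 and 9.42 with TGFβ. The 2 TGFβ values straddled the untreated ones, and the interval of -0.45 to 0.41 is too wide to tell a modest rise from a modest fall.

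**Figure D4:**
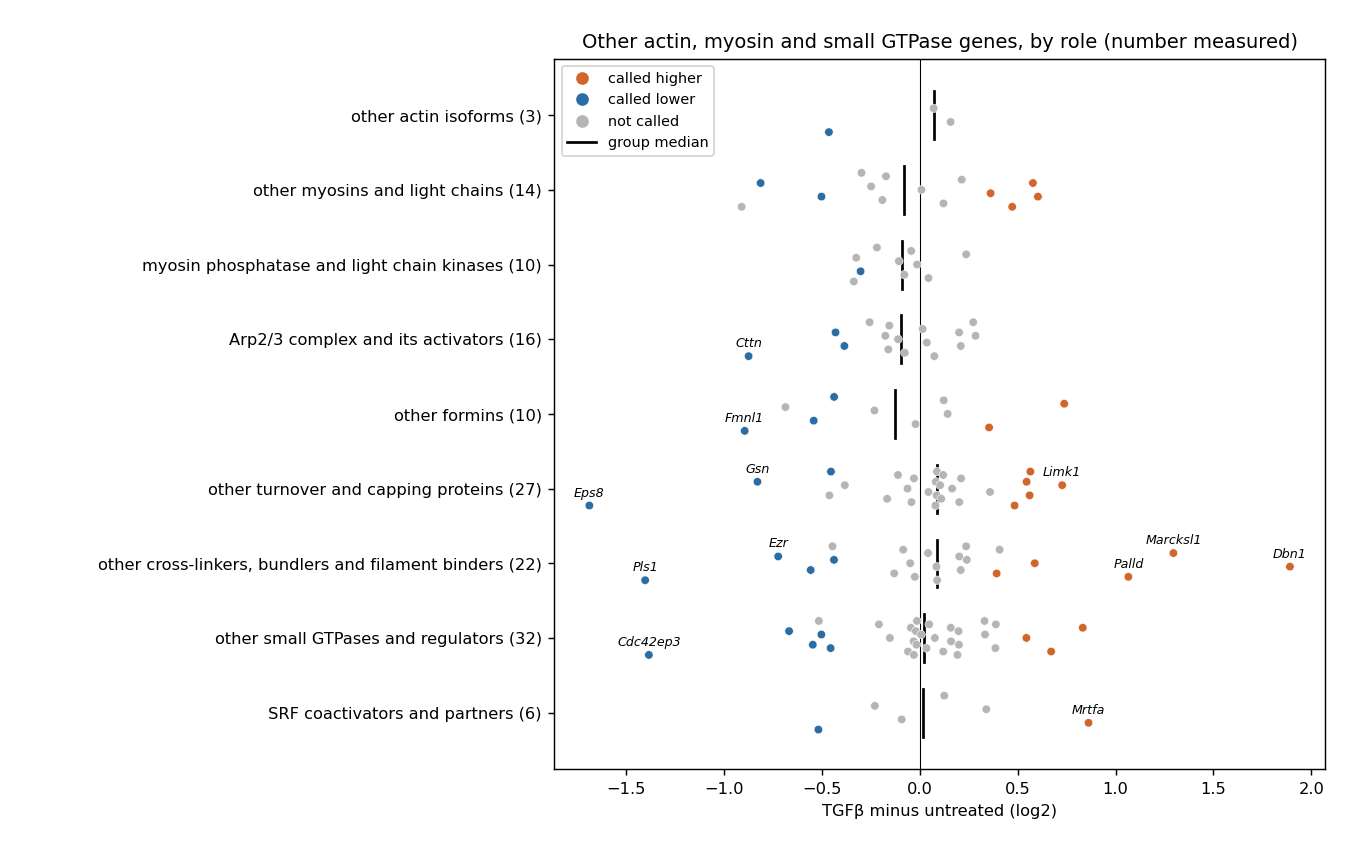
TGFβ minus untreated difference (log2, horizontal axis) of 140 further actin, myosin and small GTPase genes by role, with the number measured in brackets and the median of each group as a black line. Calls in both directions occur in 6 of the 9 groups, medians lie between -0.13 and 0.09, and Dbn1 (1.89) and Eps8 (-1.69) have the largest differences.

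To set the list beside the rest of the actin machinery, 149 further genes in 9 role groups were examined, of which 140 were measured. Of these 20 rose, 23 fell and 97 did not pass, or 14.3% higher and 16.4% lower against 6.49% and 7.15% over all genes, with a median difference of 0.012. Leaving out genes dim in both groups, 17 of 122 rose (13.9%, against 10.7% of all such genes) and 23 fell (18.9%, against 12.1%), a smaller distance from the shares over all genes. The counts were 10 rises without untreated replicate 1, untreated replicate 2 or TGFβ replicate 1, and 13 falls without either untreated replicate. With all probe sets tested together there were 10 rises and 11 falls, and 16 of the 35 called genes named in the following sentences no longer passed. Filament binders and bundlers held the largest rises. Dbn1, drebrin, which stiffens filaments in protrusions, rose by 1.89 (adjusted p = 3.2e-04), the membrane-to-actin linker Marcksl1 by 1.30 (adjusted p = 0.0055) and the stress fibre scaffold Palld by 1.07 (adjusted p = 0.0077). Pls1, the plastin of epithelial microvilli, fell by 1.40 (adjusted p = 0.0097), ezrin, Ezr, by 0.72 (adjusted p = 0.0036) and the cytokinesis protein anillin, Anln, by 0.56 (adjusted p = 0.0086). Of 22 binders and bundlers 5 rose, 4 fell and 13 did not pass. This count and those of the other role groups below stand beside 6.49% called higher and 7.15% lower over all genes. No role group was tested against these shares.

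Of 27 turnover and capping genes 5 rose and 3 fell. The cofilin kinase Limk1 rose by 0.73 (adjusted p = 0.026), the profilin Pfn2 by 0.56 (adjusted p = 0.029) and the cofilin phosphatase Ssh1 by 0.56 (adjusted p = 0.0095). The capping and bundling protein Eps8 fell by 1.69 (adjusted p = 0.021), the severing protein gelsolin, Gsn, by 0.83 (adjusted p = 0.0035) and the cofilin relative Dstn by 0.45 (adjusted p = 0.015). Calls were lost for Limk1 without untreated replicate 1 or TGFβ replicate 1 (adjusted p = 0.085 to 0.086) and for Eps8 without untreated replicate 1 or 2 (adjusted p = 0.058 to 0.065). The same held for Pfn2 (adjusted p = 0.055 to 0.12) and Dstn (adjusted p = 0.059 to 0.076) without untreated replicate 1 or 2 or TGFβ replicate 1. Eps8 also did not pass when variances were fitted robustly along an intensity trend (adjusted p = 0.059).

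Among nucleators, 0 of 16 Arp2/3 complex and activator genes rose and 3 fell, against 6.49% called higher and 7.15% lower over all genes. A group of this size cannot show whether its calls lean one way. Cortactin, Cttn, which stabilizes branches, fell by 0.87 (adjusted p = 0.0058). The WAVE complex subunit Abi1 fell by 0.43 (adjusted p = 0.018) and the Arp2/3 subunit Arpc5l by 0.38 (adjusted p = 0.028). The Abi1 call was lost without any one of the 4 arrays (adjusted p = 0.054 to 0.10) and the Arpc5l call without untreated replicate 1 or 2 or TGFβ replicate 2 (adjusted p = 0.091 to 0.13). Of 10 other formins 2 rose and 3 fell. Fhod1 rose by 0.74 (adjusted p = 0.020) and Fhod3 by 0.35 from a dim level (adjusted p = 0.039), while Fmnl1 fell by 0.89 (adjusted p = 0.0056), Fmnl2 by 0.54 (adjusted p = 0.0084) and Fmn1 by 0.44 (adjusted p = 0.018). Calls were lost for Fhod1 without untreated replicate 1 or 2 (adjusted p = 0.066 to 0.067), for Fhod3 without any one array (adjusted p = 0.072 to 0.20) and for Fmn1 without untreated replicate 1 or 2 or TGFβ replicate 2 (adjusted p = 0.060 to 0.095).

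Of 14 other myosin genes 4 rose and 2 fell. The cargo myosin Myo5a rose by 0.60 (adjusted p = 0.012), the filopodial Myo10 by 0.58 (adjusted p = 0.0073) and Myo9b, a myosin with a GTPase-activating domain, by 0.47 (adjusted p = 0.014). Myo6, which moves towards the minus end of filaments, fell by 0.81 (adjusted p = 0.033) and the membrane-tension myosin Myo1c by 0.50 (adjusted p = 0.021). The Myo5a call did not survive the loss of untreated replicate 1 (adjusted p = 0.059), and the Myo9b call ended without untreated replicate 1 or 2 or TGFβ replicate 1 (adjusted p = 0.054 to 0.076). The Myo6 call was lost without untreated replicate 1 or either TGFβ replicate (adjusted p = 0.055 to 0.12), and the Myo1c call without either replicate 2 (adjusted p = 0.069 to 0.093). The widespread light chains Myl6, Myl12a and Myl12b differed by -0.19, 0.12 and -0.25 without passing, beside the rise of Myl9. Of 10 myosin phosphatase and light chain kinase genes only Dapk3, a kinase of the light chain, was called, lower by 0.30 (adjusted p = 0.049). That call was lost without any one array (adjusted p = 0.089 to 0.20) and under 8 further alternatives. Of 3 other actins Acta1, the skeletal form, fell by 0.46 (adjusted p = 0.041), a call lost without either untreated replicate or TGFβ replicate 2 (adjusted p = 0.066 to 0.17), and Actb differed by 0.07.

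Of 32 other small GTPases and regulators 3 rose and 5 fell. Dlc1, a GAP that inactivates Rhoa, rose by 0.83 (adjusted p = 0.0046) at means below 7, but its other probe set, which lists more RefSeq transcripts, differed by -0.02. The GTPase Rhoq rose by 0.67 (adjusted p = 0.029) and the Cdc42 effector Cdc42ep1 by 0.54 (adjusted p = 0.027). Another Cdc42 effector, Cdc42ep3, fell by 1.38 (adjusted p = 0.0022), the GTPase Rac3 by 0.67 (adjusted p = 0.019) and Ect2, the GTPase exchange factor of cytokinesis, by 0.55 (adjusted p = 0.019). Calls were lost for Rhoq without untreated replicate 2 or either TGFβ replicate (adjusted p = 0.057 to 0.086) and for Cdc42ep1 without untreated replicate 2 or TGFβ replicate 1 (adjusted p = 0.092 to 0.11). They were also lost for Rac3 without either replicate 1 (adjusted p = 0.064 to 0.073) and for Ect2 without either replicate 2 (adjusted p = 0.062 to 0.082).

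Of 6 partners of Srf 1 rose and 1 fell. The coactivator Mrtfa rose by 0.86 ± 0.12 (SE, adjusted p = 0.0080), from a mean of 9.79 to 10.65, and was called in every alternative, while Srf itself differed by -0.02. Its relative Mrtfb differed by 0.13 (adjusted p = 0.44) and the muscle coactivator Myocd by -0.09 at a dim level. Elk3, a ternary complex factor that competes with Mrtfa for Srf, fell by 0.52 (adjusted p = 0.010), which no longer passed once untreated replicate 1 was left out (adjusted p = 0.062).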

How the data were processed

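The deposited table holds log2 expression values for 35556 probe sets on 4 arrays, 2 per group, which the authors made with RMA in the R package oligo, per the submitters' processing notes; no version or summary level is given in the sources used here. It has no detection calls, and precision is limited by the number of arrays. A table for the array gave 1 gene symbol to 21789 probe sets, and the brightest of them stood for a gene. Of all genes 19938 were tested with limma 3.58.1 in R 4.3.3 (two-sided, 2 residual and 3.77 prior degrees of freedom), with p-values adjusted by Benjamini and Hochberg over all of them and calls at an adjusted p under 0.05. The procedure was tested on simulated data with independent normal noise, and its recovery of differences of the size called here is not reported. With 2 arrays a group the smallest p of an exact permutation test is 0.333, so none was used. Upstream sequences come from RefSeq (GRCm38.p6). Members, lists and further genes were chosen with earlier results of these data known. The text names every member and, for each further role group, up to 3 called rises and 3 called falls; light chains, actins, markers and Srf partners named beside them were picked after their values were seen. Alternatives were other array scalings, filters on the dimmest 25% or 50% of genes, other probe set choices, an intensity trend with robust variances, a replicate block and leaving out each array. 2 alternatives, the probe set with most RefSeq transcripts and a crossed block, were chosen after seeing the data.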

Additional observations from a re-analysis of the deposited data

How the results depend on the processing

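Of the 7 calls in the list 4 (Flnc, Tpm1, Tpm2 and Myh14) held under every alternative in which the gene was tested, and 17 of the 26 uncalled genes kept their sign and stayed uncalled; Myh9 and Lcp1 passed with an intensity trend and robust variances. With all probe sets tested together 2 list genes rose, 10 further actin genes rose and 11 fell, and 1268 genes were called. The labels do not say that replicate numbers pair the cultures, and same-numbered arrays deviated from their group means with a correlation of -0.213. With the replicate number as a block 3 list genes rose, Myh10 (adjusted p = 0.084) and Rhob (adjusted p = 0.072) no longer passing, 12 further genes fell and 1624 genes were called. With crossed numbers as a block 6 list genes rose, 3 fell and 3640 genes were called. Without the dimmer 50% of genes, which leaves out Tpm2 and Myl9, 1 list gene fell. Leaving out 1 array gave 3 to 4 list rises, a list median of 0.0764 to 0.219, 10 to 18 further rises, 13 to 19 further falls and 1535 to 2260 calls in all. It also turned the sign of Des (-0.0376 to 0.0531), Actn4 (-0.0537 to 0.0543), Flna (-0.0152 to 0.0757), Svil (-0.0179 to 0.0864), Rnd3 (-0.293 to 0.0389), Rock1 (-0.0575 to 0.119) and Srf (-0.263 to 0.219). Actn4 was at -0.000905 after median centring, -0.0044 after cyclic loess and -0.022 after repeated quantile normalization, and Dlc1 at -0.0213 by the probe set with most RefSeq transcripts. The cause of these changes was not tested, and signal over background limits genes with means below 7.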

Other observations

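Troponin T, which fixes the troponin complex of striated muscle to tropomyosin, was examined after the value of its cardiac gene was seen among the muscle markers. Tnnt2 was bright in this breast cancer line, at 12.04 and 11.90 in untreated cells and 12.58 and 12.59 with TGFβ. It rose by 0.61 ± 0.08 on the log2 scale (SE, 1.53-fold, limma adjusted p = 0.0077), both TGFβ arrays were above both untreated arrays, and the call held under every alternative (adjusted p up to 0.037). Of the 5 other muscle markers Myog, Myod1 and Ryr2 had means below 7 in both groups, and Ckm (7.14 untreated and 7.11 with TGFβ) and Tnnt3 (7.09 and 7.21) lay just above 7 in both without passing. Of the 7 other troponin genes 1 rose, 0 fell and 6 did not pass. Tnnc1, troponin C of slow and cardiac muscle, rose by 0.37 around the level of 7 (adjusted p = 0.032), a call lost without any one of the 4 arrays (adjusted p = 0.069 to 0.17). The brightest of the others, the fast muscle Tnni2, differed by -0.36 (adjusted p = 0.083).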
